A study of Rattus norvegicus with 10 samples.

Results

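Apoe, Apoc1, Lpl, Abca1, Abcg1, Cd36, Fabp4, Fabp5 and Plin2 are 9 genes that carry, take up, export or store lipid, and they were followed here among the 22081 genes counted in rat intracranial aneurysms and in the arteries around them. They were picked by name, with their difference between the 2 tissues already known from these same libraries, so the values of that difference, and whether they passed the fit across all genes, are given as a description only. The tissues were 5 rupture-prone aneurysms, numbered 4 to 8, and 5 samples of the remaining circle of Willis, labelled control 4 to 8. All came from female wild-type Sprague-Dawley rats operated on at 10 weeks of age. Every animal, and so the control tissue as well, had undergone removal of both ovaries and ligation of the left carotid, the right external carotid, the right pterygopalatine and the left renal arteries, and had been given a diet with salt at 8% and the inhibitor 3-aminopropionitrile at 0.12%, which blocks lysyl oxidase, the enzyme that cross-links collagen and elastin. A rupture-prone lesion was one on the anterior or posterior communicating artery. Both tissues were taken from the same animals on day 63, so the control arteries too came from operated, salt-fed animals. No source used here says that each number is a separate animal, and p-values therefore measure only the spread between these samples.

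Lipid reaches the cells of an artery inside lipoproteins. Apoe and Apoc1 encode apolipoproteins, the proteins that coat these particles, and Apoe is the ligand by which receptors of the LDL receptor family bind them. Lipoprotein lipase (Lpl) cuts their triglyceride into fatty acids, the scavenger receptor Cd36 takes up fatty acids and oxidized lipoproteins, and Fabp4 and Fabp5 bind fatty acids inside the cell. Abca1 and Abcg1 pump cholesterol out of the cell, Abca1 onto lipid-poor apolipoproteins and Abcg1 to mature high-density lipoprotein. Plin2 coats the droplets in which surplus lipid is kept. Macrophages that take up lipid in an arterial wall are known to express all of these genes, and in the brain Apoe is made mainly by astrocytes.

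The libraries differed in ways that touch these genes. Total gene reads, which are exon plus intron reads, were 4513515 to 7352626 in the aneurysms and 3017269 to 5692715 in the controls, of which mitochondrial genes took 19.4% to 50.3% in the aneurysms and 37.9% to 59.0% in the controls. Aneurysm 8 held only 743 genes with at least 10 exon reads, against up to 7590 in the other aneurysms and 2664 to 4225 in the controls, and its TMM scaling factor was 0.282 where the other 9 libraries had 0.759 to 1.57. Controls 6 and 7 held transcripts known from gut and pancreas rather than from arteries. Over 16 genes of the intestinal epithelium, a list drawn up after the values were seen, there were 9505 reads in control 6 and 4179 in control 7, against 0 to 14 in the 5 aneurysms and 0 to 6 in the other 3 controls. S100g, an intestinal calcium-binding protein, had 4078 and 715 reads in controls 6 and 7, and sucrase-isomaltase (Si) had 163 and 172. Control 7 also held 6289 reads over 8 digestive enzyme and secretory genes of the exocrine pancreas, of which 2738 were of trypsinogen (Prss1), against at most 29 in any aneurysm and 4 in any other control. The values of the 9 genes are therefore also given against controls 4, 5 and 8 alone, as are those of some of the other named lipid genes. CPM below are read counts brought to a common library size by TMM scaling, and a ratio interval or floor covers counting error only. In bulk tissue, fewer cells of a type and less RNA per cell cannot be told apart.

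Promoter sequence was at hand for 5 of the 9 genes, in 9 windows of RefSeq's assembly GRCr8, a newer build than the Rnor6 build of the read counts. The stretches below show what lies upstream of the carrier, the exporter and the droplet coat for which the aneurysm and control reads are compared further on. Each gives the 250 bases before an annotated start, 5′ to 3′ on the strand of the gene, with CACGTG (the E-box), GAGGAA or its reverse complement TTCCTC (the core bound by PU.1, a transcription factor of macrophages) and TATAAA in capitals.
Apoe, chr1:88484700-88484949, minus strand: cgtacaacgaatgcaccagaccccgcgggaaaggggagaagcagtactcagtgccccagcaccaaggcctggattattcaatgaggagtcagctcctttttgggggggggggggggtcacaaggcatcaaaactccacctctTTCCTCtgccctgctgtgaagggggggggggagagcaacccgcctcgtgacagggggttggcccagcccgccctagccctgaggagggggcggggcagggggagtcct
Abca1, chr5:72596474-72596723, minus strand: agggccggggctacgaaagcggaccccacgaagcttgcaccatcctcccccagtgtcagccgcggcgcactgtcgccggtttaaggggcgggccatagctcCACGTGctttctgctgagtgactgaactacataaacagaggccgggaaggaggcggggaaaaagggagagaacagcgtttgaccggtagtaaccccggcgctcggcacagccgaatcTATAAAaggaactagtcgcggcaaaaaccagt
Plin2, chr5:106229019-106229268, minus strand: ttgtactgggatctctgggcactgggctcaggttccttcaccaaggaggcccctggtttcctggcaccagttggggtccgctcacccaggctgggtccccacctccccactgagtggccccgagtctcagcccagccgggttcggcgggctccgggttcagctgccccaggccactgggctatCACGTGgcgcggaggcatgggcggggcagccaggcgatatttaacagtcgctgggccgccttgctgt
Searched on both strands in windows of 300 bases that run 50 bases past the start, GAGGAA lay in 1 of the Apoe windows and in that of Cd36, and in 27.6% of all 33469 rat windows. CACGTG lay in the Abca1 window and in 1 Plin2 window, and in 6.42% of all windows. TATAAA was present in the windows of Abca1 and Cd36, and in 14.2% of all windows. AGGTCA, the hexamer that nuclear receptors such as the liver X receptors bind in pairs, was found in 0 of the 9 windows and in 16.2% of all windows. A pair of it in the same direction was therefore absent too. Spaced by 4 bases, such an exact pair lay in only 0.006% of all windows, and spaced by 1 base in 0.0538%. Variants of the hexamer were not searched, so these absences cannot show whether a window holds a receptor site. A match of letters is no measure of binding, and no binding was measured.

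Of the 9 genes, 6 had enough reads to be fitted (Apoe, Lpl, Abca1, Abcg1, Fabp5 and Plin2), while Apoc1, Cd36 and Fabp4 fell below the filter on low counts. All 6 had a positive log2 fold change of aneurysm over control, where 54.2% of all 7615 fitted genes did, and their median was 2.62 on the log2 scale against 0.13 over all fitted genes. Only Apoe passed an adjusted p of 0.05 in edgeR's quasi-likelihood test, a threshold that 0.118% of all fitted genes passed as higher and 0.0394% as lower in the aneurysms. DESeq2, which called 1.71% of all fitted genes, called Apoe and Lpl. The Apoe call was lost with upper-quartile scaling, with library size alone and with exon reads. Without the filter, edgeR called 130 of 16700 genes, with Apoe and Apoc1 among them. At least 3 of the 5 aneurysms lay above every control in CPM for 5 of the 9 genes (Apoe, Apoc1, Lpl, Abca1 and Abcg1), and for 12.9% of all fitted genes. Since the genes were picked with this contrast known, and the filter itself kept those that are high in 1 group, nothing is read from these counts.

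Apoe, the lipoprotein ligand, lies on chromosome 1 from 80612894 to 80617057 (Rnor6, ENSRNOG00000018454) and has 6 exons in the deposited annotation. Its CPM were 685, 3439.5, 5798, 3146 and 478 in aneurysms 4 to 8, against 358, 239, 207, 204 and 122 in controls 4 to 8. Every aneurysm was above every control, an order that 0.499% of all fitted genes had, but aneurysms 4 and 8 lay close to the highest control and aneurysms 5, 6 and 7 far above it. The mean was 2709 ± 2199 CPM in the aneurysms and 226 ± 85.5 CPM in the controls (SD, n = 5 each), and the log2 fold change was 3.58 (standard error 0.74). Leaving out controls 6 and 7 could not undo that order, so it says nothing further. Controls 4, 5 and 8 alone averaged 240.0 ± 118 CPM (SD, n = 3). Against them the log2 fold change was 3.50 (standard error 1.02), but Apoe no longer passed the threshold across genes. It also fell short of the threshold when aneurysm 5, 6 or 7 or any single control was left out, at log2 fold changes of 3.09 to 3.82.
In reads, before any scaling, Apoe had 5843, 37280, 32153, 15586 and 604 in aneurysms 4 to 8, against 2060, 1132, 717, 1154 and 275 in controls 4 to 8. The place of aneurysm 8 turned on its small scaling factor: without that factor Apoe stood at 135 CPM there, below 4 of the 5 controls, which had 501, 274, 225 and 209 CPM in controls 4 to 7, and above the 92.9 CPM of control 8. All Apoe reads but 1, an intron read in control 4, lay in exons. Ranked by exon reads per length, Apoe was the 29th, 20th, 15th, 18th and 58th gene in aneurysms 4 to 8, against the 40th, 49th, 115th, 93rd and 118th in controls 4 to 8. It was thus among the most abundant transcripts of both tissues, and it held 78.0% to 97.2% of the reads of the 9 genes in the aneurysms and 68.1% to 81.6% in the controls. Only 0.316% of its exon reads in the aneurysms and 0.637% in the controls spanned an exon junction, where junction reads made up 1.05% to 9.05% of all exon reads in the aneurysm libraries and 2.18% to 5.49% in the control libraries.

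**Figure D1:**
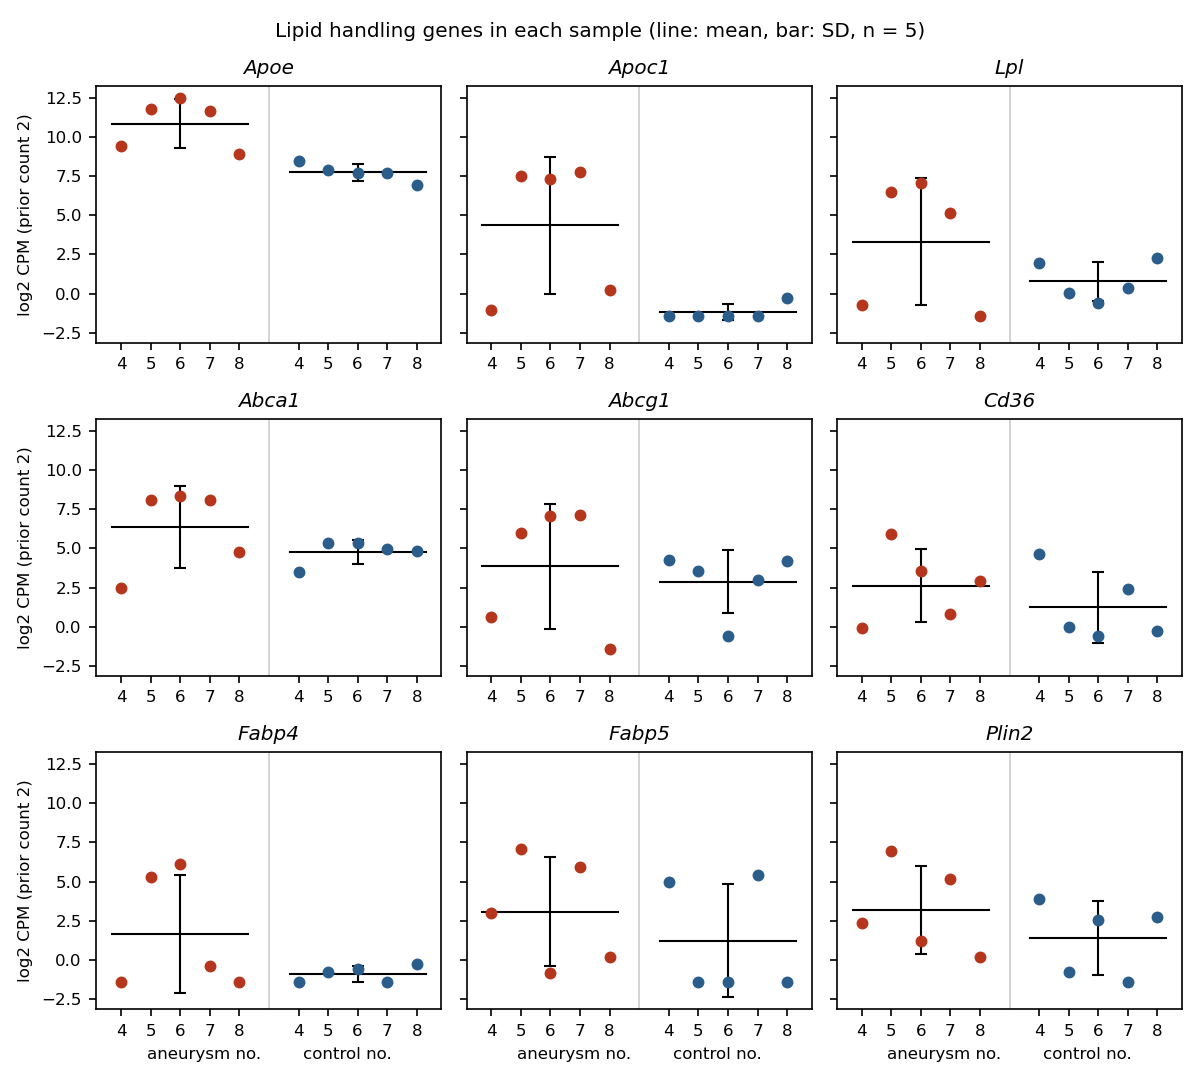
Level of each of the 9 genes (vertical axis, log2 CPM with a prior count of 2) in the 5 aneurysms (red, left) and the 5 controls (blue, right), by sample number, with the group mean as a line and the SD as a bar (n = 5 each). Aneurysms 5, 6 and 7 carry the high values of Apoe, Apoc1, Lpl, Abca1 and Abcg1, aneurysm 8 is near the controls for most genes, and for Fabp5 controls 4 and 7 lie above aneurysms 4, 6 and 8 and below aneurysms 5 and 7.

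Apoc1, which encodes a small apolipoprotein that inhibits lipoprotein lipase, sits 2972 bases before Apoe on chromosome 1 (80606637 to 80609921, ENSRNOG00000018426). It had 1, 1987, 883, 1080 and 1 reads in aneurysms 4 to 8, against 0, 0, 0, 0 and 1 in controls 4 to 8. The gene was thus near absent from aneurysms 4 and 8 and from every control, and reached 183, 159 and 218 CPM in aneurysms 5, 6 and 7. The scaled ratio of summed reads was 2775 (95% exact counting interval 498 to 1.0963e+05), a ratio that stands on a single control read. Of its exon reads in the aneurysms, 67.4% spanned an exon junction, the highest share among the 9 genes. In the fit without a filter its log2 fold change was 10.55 (standard error 1.65), a value that depends on the prior count. Leaving out controls 6 and 7 removed 0 of its control reads.
Tomm40, a subunit of the mitochondrial import pore that lies next to Apoe (80618153 to 80630038), had 0 reads in all 10 libraries. Apoc2, the activator of lipoprotein lipase, had 0, 0, 142, 6 and 2 reads in aneurysms 4 to 8, against 2, 0, 0, 23 and 1 in controls 4 to 8, and Apoc4 had 18 reads in aneurysm 7 and none elsewhere. Clptm1, a membrane protein gene of the same region, had a log2 fold change of -0.14, and its reads ran between 2 and 397 in the aneurysms and between 67 and 167 in the controls. Bcam, a laminin receptor gene of the region, had 0, 86, 214, 1 and 0 reads in aneurysms 4 to 8, against 43, 39, 29, 0 and 0 in controls 4 to 8, and a log2 fold change of 0.95. Nectin2, a cell adhesion gene there, had 43, 3, 0, 17 and 0 reads in aneurysms 4 to 8, against 11, 189, 21, 10 and 2 in controls 4 to 8, and a log2 fold change of -2.49.

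Apoe is made by macrophages and by astrocytes, so the levels of markers of both are given beside it. The 15 macrophage markers in the table summed to 353, 5894, 7191, 1555 and 141 CPM in aneurysms 4 to 8, against 254, 102, 198, 242 and 70.8 CPM in controls 4 to 8. The 6 fibroblast markers summed to 299.98, 19996, 14410, 3967 and 399 CPM in aneurysms 4 to 8, against 255, 254, 127, 393 and 61.4 CPM in controls 4 to 8. Aneurysms 5, 6 and 7 were thus the highest for both sums, as they were for Apoe. The fibroblast sum was mostly the collagens Col1a1 and Col3a1 in those 3 aneurysms, and its other 4 genes summed to 172, 396, 316, 106 and 105.2 CPM in aneurysms 4 to 8, against 125, 110, 32.3, 183 and 53.9 CPM in controls 4 to 8, where aneurysms 5 and 6 but not aneurysm 7 were above every control. Of the macrophage markers 13 had a higher mean in the aneurysms, and 2 of the 11 fitted ones, lysozyme (Lyz2) and Gpnmb, passed the test across genes as higher. So did 2 of the 5 fitted fibroblast markers, Col1a1 and Col3a1. Lyz2 alone gave 43.3, 2575, 4244, 561 and 1.58 CPM of the macrophage sum in aneurysms 4 to 8, against at most 29.2 CPM in any control. Cd68 had 1, 3550, 2784, 246 and 3 reads in aneurysms 4 to 8 and at most 1 read in any control. The 7 astrocyte markers summed to 263, 156, 282, 205 and 5.54 CPM in aneurysms 4 to 8, against 973, 735, 440.1, 553 and 693 CPM in controls 4 to 8. Within the list Slc1a3, a glutamate transporter, had a mean of 73.0 CPM in the aneurysms and 485 CPM in the controls. It was the largest part of each control sum, at 474, 546, 365, 497 and 541 CPM in controls 4 to 8. In aneurysms 4 to 8 it was at 163, 22.1, 63.8, 112 and 3.96 CPM. Most of its reads were intronic. No other gene of the list was lower in each aneurysm than in every control, so that order of the sum rested on Slc1a3. Gja1, a gap junction protein, had a higher mean in the aneurysms (27.9 CPM) than in the controls (13.8 CPM). Slc1a2 and Aldh1l1 had 0 reads in every aneurysm but also at most 2 reads in 4 of the 5 controls each, with 50 Slc1a2 reads in control 5 and 117 Aldh1l1 reads in control 4. Of the 4 fitted astrocyte markers 0 passed the test (1 at an unadjusted p under 0.05). Microglial markers summed to 1.58 to 266 CPM in the aneurysms and 0.21 to 57.3 CPM in the controls, smooth muscle markers to 363 to 815 CPM and 377 to 1070 CPM, and endothelial markers to 65.8 to 198 CPM and 103 to 276 CPM. The 10 neuronal markers summed to 12.6 to 161 CPM in the aneurysms and 165 to 1015 CPM in the controls. Oligodendrocyte markers summed to 40.8 to 501 CPM in the aneurysms and 34.9 to 152 CPM in the controls, and 4 of the 5 had a higher mean in the aneurysms. Neutrophil markers summed to at most 8.56 CPM in any aneurysm and 7.13 CPM in any control, and choroid plexus markers to at most 221 and 13.2 CPM, with 279 reads of transthyretin (Ttr) in aneurysm 8 and at most 1 in the other aneurysms. The part of these cell types in the Apoe values was not tested.

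**Figure D2:**
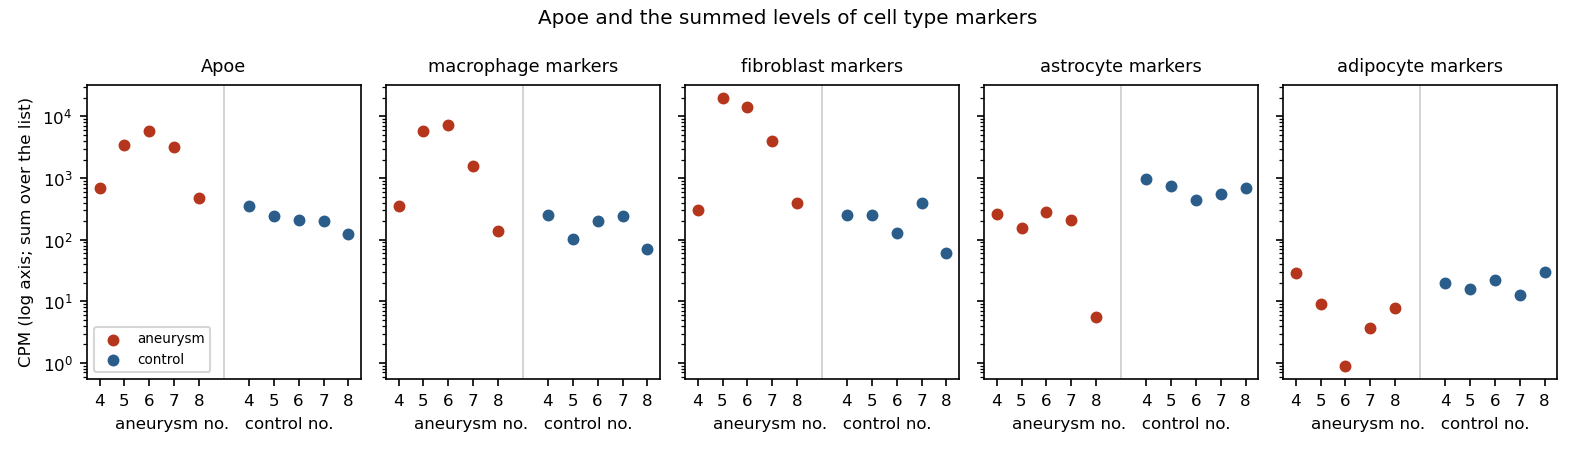
CPM on a log axis in each aneurysm (red, left) and each control (blue, right) for Apoe and for the summed markers of macrophages, fibroblasts, astrocytes and adipocytes. The macrophage and fibroblast sums are highest in aneurysms 5, 6 and 7, the 3 samples with the highest Apoe. The astrocyte sum is lower in each aneurysm than in every control, an order that only Slc1a3 among its genes had.

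Lpl, the lipase that releases fatty acids from lipoproteins, lies on chromosome 16 (22537055 to 22561496, ENSRNOG00000012181, 10 exons). Its CPM were 0.235, 90.9, 134, 34.7 and 0 in aneurysms 4 to 8, against 3.48, 0.634, 0.289, 0.882 and 4.45 in controls 4 to 8. Aneurysms 5, 6 and 7 were above every control. Aneurysms 4 and 8 were below every control in CPM, but on 2 and 0 reads, against 20, 3, 1, 5 and 10 reads in controls 4 to 8. That lower order therefore lies near the floor. The mean was 52.0 ± 59.1 CPM in the aneurysms and 1.95 ± 1.89 CPM in the controls (SD, n = 5 each), and the log2 fold change was 4.74 (standard error 1.66), or 4.21 (standard error 1.98) without controls 6 and 7.
Almost all Lpl reads of the aneurysms were exonic (99.9%), against 38.5% in the controls, where 15 exon reads in all came from controls 7 and 8. In exon reads alone the scaled ratio was 89.0 (95% counting interval 53.8 to 159). None of them spanned an exon junction in any library. Gpihbp1, the endothelial anchor on which the lipase works, had 1 read each in aneurysms 6 and 7 and 0 in the other 8 libraries.

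Abca1, which loads cholesterol and phospholipid onto lipid-poor apolipoproteins, lies on chromosome 5 (69857770 to 69983015, ENSRNOG00000018126, 51 exons). Its CPM were 5.16, 277, 331, 272.5 and 26.9 in aneurysms 4 to 8, against 10.95, 41.0, 40.7, 30.35 and 27.6 in controls 4 to 8. The same 3 aneurysms were above every control, and aneurysm 4 was below all of them. The means were 183 ± 154 CPM in the aneurysms and 30.1 ± 12.3 CPM in the controls (SD, n = 5 each). The log2 fold change was 2.60 (standard error 0.91), and 2.80 (standard error 1.21) without controls 6 and 7.
Summed over each group, the kind of read differed more than the total. Exon reads were 0, 2192, 750, 466 and 0 in aneurysms 4 to 8, against 0, 4, 53, 0 and 0 in controls 4 to 8. In these sums exons held 54.4% of the reads of the aneurysms and 9.02% of those of the controls. By sample, the share was 73.0%, 40.8% and 34.5% in aneurysms 5, 6 and 7. Control 6, a library with intestinal transcripts, was within that range at 37.6% (95% exact interval 29.6% to 46.1%). It held 53 of the 57 control exon reads. Counted in exons alone, the scaled ratio was 42.0 (95% counting interval 32.3 to 55.5). The 44 and 34 reads of aneurysms 4 and 8, like all reads of controls 4, 7 and 8, were thus wholly intronic. Since the strand setting of the counts is not known, reads of a gene that overlaps Abca1 cannot be told apart from its own, and 1 overlapping model of no known name (AABR07048271.1) had 338 reads over the aneurysms and 0 over the controls.

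Abcg1, which exports cholesterol to mature high-density lipoprotein, lies on chromosome 20 (9743268 to 9840489, ENSRNOG00000001158, 20 exons). Its CPM were 1.17, 61.7, 133, 141 and 0 in aneurysms 4 to 8, against 18.4, 11.2, 0.289, 7.59 and 17.8 in controls 4 to 8. Aneurysms 5, 6 and 7 were above every control here too, and aneurysm 4 was below 4 of the 5 controls and aneurysm 8 below every control. The means were 67.3 ± 68.3 CPM in the aneurysms and 11.1 ± 7.55 CPM in the controls (SD, n = 5 each), with a log2 fold change of 2.61 (standard error 1.34). It was 2.11 (standard error 1.54) without controls 6 and 7, of which control 6 had 1 Abcg1 read.
Exon reads came from 2 aneurysms and 1 control, with 335 in aneurysm 5, 224 in aneurysm 6 and 3 in control 7, and the 698 reads of aneurysm 7 were all in introns. Exons thus held 26.4% of the Abcg1 reads of the aneurysms and 1.23% of those of the controls. The scaled ratio in exon reads was 131 (95% counting interval 44.5 to 636) on 3 control reads. No Abcg1 read spanned an exon junction in any library.

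**Figure D3:**
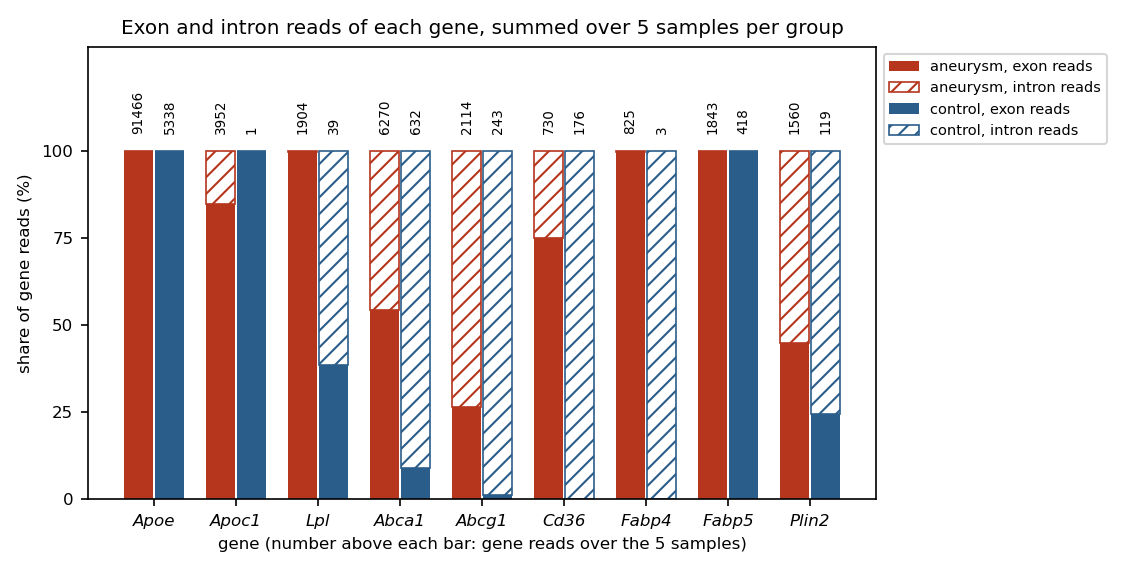
Share of the gene reads of each gene (vertical axis, %) that lay in exons (filled) and introns (hatched), summed over the 5 aneurysms (red, left bar) and the 5 controls (blue, right bar), with the number of reads above each bar. Apoe and Fabp5 are exonic in both tissues, while the reads of Abca1 are 54.4% exonic in the aneurysms and 9.02% in the controls, and those of Abcg1 26.4% and 1.23%. The sums do not show the samples: for Abca1, control 6 was 37.6% exonic and aneurysm 7 34.5%.

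Cd36, the scavenger receptor, spans 14001760 to 14249749 on chromosome 4 (ENSRNOG00000040108) and its count is uncertain. Its reads were 5, 646, 63, 7 and 9 in aneurysms 4 to 8, against 143, 3, 1, 28 and 1 in controls 4 to 8. Aneurysm 5 alone was above every control in CPM, at 59.6 against 24.9 in control 4, and the means were 16.0 ± 24.8 CPM in the aneurysms and 6.23 ± 10.6 CPM in the controls (SD, n = 5 each). In the fit of all 10 samples without a filter the log2 fold change was 1.35 (standard error 1.87). Cd36 passed the filter once controls 6 and 7 were left out, and it was 0.87 there (standard error 2.15). Only 34.7% of its reads mapped to a single place, and of its 549 exon reads, all in aneurysms 5 and 6, 0 did. Counted by uniquely mapped reads, it had 4, 120, 24, 7 and 4 in aneurysms 4 to 8, against 143, 2, 1, 8 and 1 in controls 4 to 8, and 0 aneurysms were above every control. The model covers 2 further gene models, RGD1565355 and LOC103690020, that had 0 reads. The other 8 genes had unique shares of 99.2% or more.

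Fabp4 and Fabp5, cytosolic carriers of fatty acids that lie 184349 bases apart on chromosome 2, had patterns unlike each other. Fabp4 (93792600 to 93797305, ENSRNOG00000010805), known from adipocytes and macrophages, had 0, 431, 392, 2 and 0 reads in aneurysms 4 to 8, against 0, 1, 1, 0 and 1 in controls 4 to 8. It was thus a transcript of 2 aneurysms, at 39.8 CPM in aneurysm 5 and 70.7 CPM in aneurysm 6. All but 1 of its reads in the aneurysms were exonic and 63.4% of the exon reads spanned a junction, while the 3 control reads were intronic. Over gene reads the scaled ratio was 193 (95% counting interval 65.8 to 938) on 3 control reads, and over exon reads, with 0 in the controls, Fabp4 was at least 193-fold higher in the aneurysms, with the 5 controls together set at a floor of 3 reads. Of the 3 control reads, 2 remained without controls 6 and 7.
The 8 adipocyte markers summed to 29.0, 9.13, 0.902, 3.63 and 7.91 CPM in aneurysms 4 to 8, against 12.7 to 29.8 CPM in the controls. Of these, adiponectin (Adipoq) had 23 reads in aneurysm 4 and 0 in aneurysms 5 to 8, against 0 to 17 in the controls, and the adipocyte protease Cfd had 71 reads in aneurysm 5, 2 in aneurysm 6 and 0 in the other aneurysms, against 15 in control 4 and 0 in the other controls. Lipe gave 26.0 of the 29.0 CPM of aneurysm 4, and Retn had 0 reads in all 10 libraries. The part of adipocytes in the Fabp4 values was not tested.
Fabp5 (93981655 to 93985378, ENSRNOG00000049075), the epidermal type that macrophages also express, had 65, 1468, 1, 308 and 1 reads in aneurysms 4 to 8, against 179, 0, 0, 239 and 0 in controls 4 to 8. Its CPM were 7.62, 135, 0.180, 62.2 and 0.791 in the aneurysms, against 31.1, 0, 0, 42.2 and 0 in the controls. Aneurysms 5 and 7 were above every control, aneurysm 6 had a single read, and controls 4 and 7 were above 3 of the 5 aneurysms. The groups thus overlapped, with means of 41.2 ± 58.7 CPM in the aneurysms and 14.7 ± 20.4 CPM in the controls (SD, n = 5 each) and a log2 fold change of 1.49 (standard error 1.66). Of its 418 control reads, 239 came from control 7, 1 of the 2 libraries with intestinal transcripts, and without controls 6 and 7 the log2 fold change was 1.98 (standard error 1.95). Without aneurysm 5 it was 0.30. All Fabp5 reads were exonic. Of the genes between and around the pair, Fabp9 and Pmp2 had 0 reads in all 10 libraries, and Fabp12 had at most 9 reads in any aneurysm and 5 in any control.

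Plin2, the coat protein of lipid droplets and a gene that cells switch on when they store lipid, lies on chromosome 5 (104984413 to 105010857, ENSRNOG00000007060, 9 exons). Its CPM were 4.81, 123, 1.98, 34.9 and 0.791 in aneurysms 4 to 8, against 14.8, 0.212, 5.49, 0 and 6.23 in controls 4 to 8. Aneurysms 5 and 7 were above every control, and aneurysm 6, which had the highest Apoe and Lpl, had less Plin2 than 3 of the controls. The means were 33.1 ± 52.2 CPM in the aneurysms and 5.34 ± 6.01 CPM in the controls (SD, n = 5 each), and the log2 fold change was 2.63 (standard error 1.69), or 2.23 (standard error 1.95) without controls 6 and 7. Without aneurysm 5 it was 1.01. Exons held 44.8% of its reads in the aneurysms and 24.4% in the controls, and its 199 junction reads all came from aneurysm 5.

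Across the 9 genes, aneurysms 5 and 6 were the richest samples and aneurysms 4 and 8 the poorest of their group. Aneurysm 5 held at least 10 exon reads of each of the 9 genes, aneurysm 6 of 7, aneurysm 7 of 6, aneurysm 4 of 3 and aneurysm 8 of 1, against 1 to 3 of the genes in each control. These counts are not scaled for depth. Among all 22081 genes, 3190, 7590, 3203, 3660 and 743 had as many exon reads in aneurysms 4 to 8, against 2664 to 4225 in the controls. The highest CPM of Cd36, Fabp5 and Plin2 was in aneurysm 5, that of Apoe, Lpl, Abca1 and Fabp4 in aneurysm 6, and that of Apoc1 and Abcg1 in aneurysm 7. The spread within the aneurysms was wide, with an SD of log2 CPM of 1.58 for Apoe and 2.35 to 4.37 for the other genes. Within the controls it was 0.55 for Apoe and 0.50 to 3.62 for the others, with Fabp5 the most variable. Summed over the 9 genes, the 5 aneurysms had 514 to 6640.1 CPM and the 5 controls 180 to 462 CPM, and without Apoe 19.7 to 971 CPM in the aneurysms and 47.4 to 104 CPM in the controls, where the groups overlapped.

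To compare levels between genes, exon reads in CPM, after the same scaling, were divided by the exon length in kilobases. On this scale Apoe averaged 1742 in the aneurysms and 145 in the controls. In the aneurysms it was followed by Apoc1 at 197, Fabp5 at 57.0, Fabp4 at 33.2 and Lpl at 14.2, and then by Plin2 at 8.47, Abca1 at 8.35, Abcg1 at 3.66 and Cd36 at 1.14, the last without a unique read. In the controls Fabp5 came after Apoe at 20.3, and no other gene of the 9 averaged more than 0.756, the value of Plin2. With SDs of the CPM in the aneurysms near or above the means, neighbours in this order were not separated beyond their spread. Apoe was above Apoc1 in every aneurysm, but its range over the aneurysms, 307 to 3729, met that of Apoc1, 0.251 to 361.

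Of 129 other lipid genes in 10 lists that do not hold the 9 genes, 65 were fitted and 0 passed an adjusted p of 0.05 in edgeR's quasi-likelihood test (DESeq2 called 1, and 5 had an unadjusted p under 0.05, 4 higher and 1 lower, where 5.73% of all fitted genes had one). Their log2 fold changes were positive for 32 and negative for 33, with a median of -0.01, against 0.13 over all fitted genes.
Among carriers, phospholipid transfer protein (Pltp) had the lowest p of these genes, with 261, 3755, 1490, 1444 and 119 reads in aneurysms 4 to 8, against 203, 127, 121, 22 and 86 in controls 4 to 8, and a log2 fold change of 2.89 (standard error 0.84, edgeR adjusted p = 0.265). It was the gene that DESeq2 called. The 3 fitted genes of its list had a median of 0.76, and apolipoprotein D (Apod) was at 0.76 (standard error 1.08). Without controls 6 and 7 the median was 1.56 over 4 genes, all positive, and Apod was at 0.49 (standard error 1.24). Among 7 receptors, with a median of 0.21, Lrp1, an endocytic receptor for Apoe, was at 1.69 on the log2 scale (standard error 0.67) and the scavenger receptor Msr1 at 2.54 (standard error 1.24), with adjusted p of 0.63 and 0.873 in edgeR. Without controls 6 and 7 the median was 0.49 over 10 receptors and Msr1 was at 3.65 (standard error 1.70). Lmf1, which matures the lipase in the cell, was the only fitted partner of Lpl, at -0.04 (standard error 1.60), and at 0.06 without controls 6 and 7.
Among 10 genes of cholesterol storage and trafficking (median 0.21, or 0.86 over the 11 fitted without controls 6 and 7), Npc2, which moves cholesterol out of lysosomes, had 398, 4918, 2539, 1494 and 1 reads in aneurysms 4 to 8, against 193, 111, 2, 275 and 0 in controls 4 to 8, with a log2 fold change of 3.56 (standard error 1.20, edgeR adjusted p = 0.466). Nceh1, a cholesteryl ester hydrolase, had one of 1.45 (standard error 1.11). The 12 sterol sensors and nuclear receptors had a median of 0.97, with Rxrb, a retinoid X receptor with which liver X and PPAR receptors pair, at 3.10 (standard error 1.97) and the coactivator Ppargc1a at -2.96 (standard error 1.49), with adjusted p of 0.996 and 0.889 in edgeR. Without controls 6 and 7 that median was 1.36 over 13 genes and Rxrb was at 2.38 (standard error 2.20). Cholesterol synthesis had the lowest median of the lists, at -1.75 over 7 fitted genes of which 6 were negative, and the enzymes Cyp51 and Sqle were at -3.93 (standard error 1.81) and -3.01 (standard error 1.86), with adjusted p of 0.827 and 0.977 in edgeR. Of the 273 control reads of Cyp51, 160 were in control 6, 1 of the libraries with intestinal transcripts, where all 14 synthesis genes summed to 353 CPM, against 17.4 to 103 CPM in the aneurysms and 80.8 to 157 CPM in the other controls. Without controls 6 and 7, Cyp51 was at -3.07 (standard error 2.16) and Sqle at -3.43 (standard error 2.20), and the median of the list was -2.55 over 8 genes, 6 of them negative.
The fatty acid lists were centred near 0 or below it. Medians were -0.98 over 5 genes of binding and transport, -0.62 over 8 of oxidation, 0.01 over 6 of synthesis and 0.03 over 6 of droplets and triglyceride turnover. Without controls 6 and 7 they were -0.63 over 7, 0.27 over 9, -0.08 over 6 and -0.37 over 6 fitted genes in the same order, so that oxidation, synthesis and droplets changed sign. Named by their p within these lists were the transporter Slc27a4 at -1.80, the activating enzyme Acsl4 at 1.80, Cpt1a of mitochondrial import at -1.49, Hadha of beta oxidation at -1.15, Acaca of fatty acid synthesis at -0.92, the desaturase Fads2 at -1.29, Dgat1 of triglyceride synthesis at -2.08 and Fitm2 of droplet formation at 3.36. Standard errors of these 8 values were 1.37 to 1.76 and adjusted p 0.889 to 0.999 in edgeR, and without controls 6 and 7 Acaca was at -0.16 and Fitm2 at 4.31. In the filtered edgeR quasi-likelihood fit of all 10 samples, only the list of the 9 genes had a gene that passed. All the lists were chosen with earlier results of these data known. Several genes of intestinal lipid absorption were read almost only in the controls with intestinal transcripts: Apoa1 had 276 and 223 reads and Fabp1 234 and 466 in controls 6 and 7, against at most 1 read of either gene in any aneurysm.

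**Figure D4:**
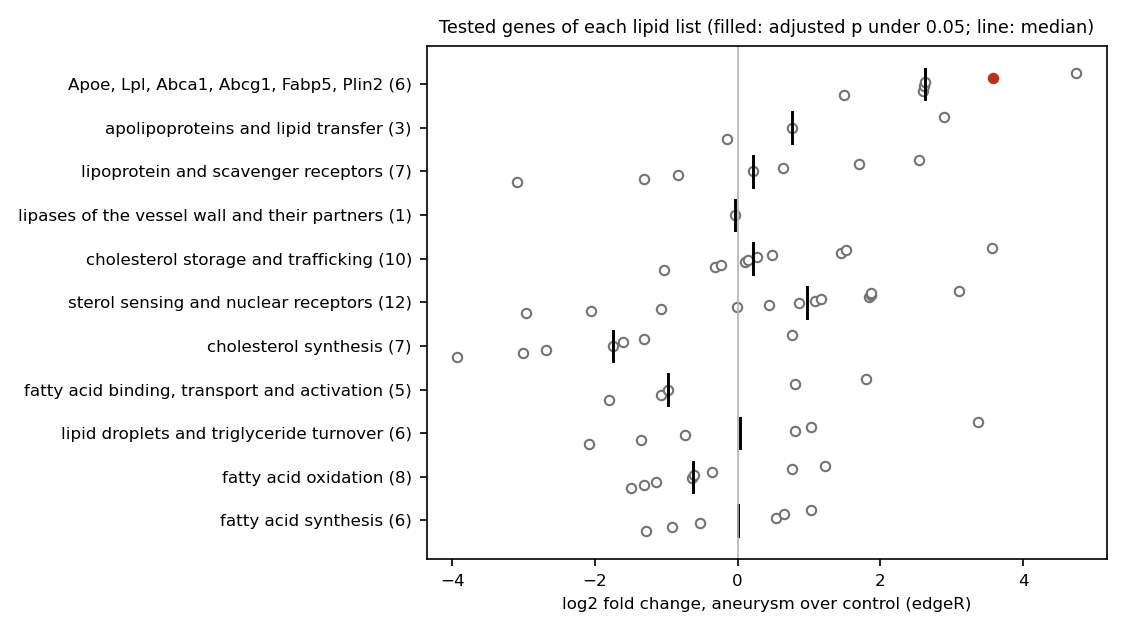
Log2 fold change of aneurysm over control (horizontal axis, edgeR) for the fitted genes of each lipid list, with the list's median as a line and filled points for an adjusted p under 0.05. The 6 fitted genes of the row that starts with Apoe were chosen with this contrast known, and Apoe is the filled point; 0 of the 65 genes of the other lists are filled.

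**Figure D5:**
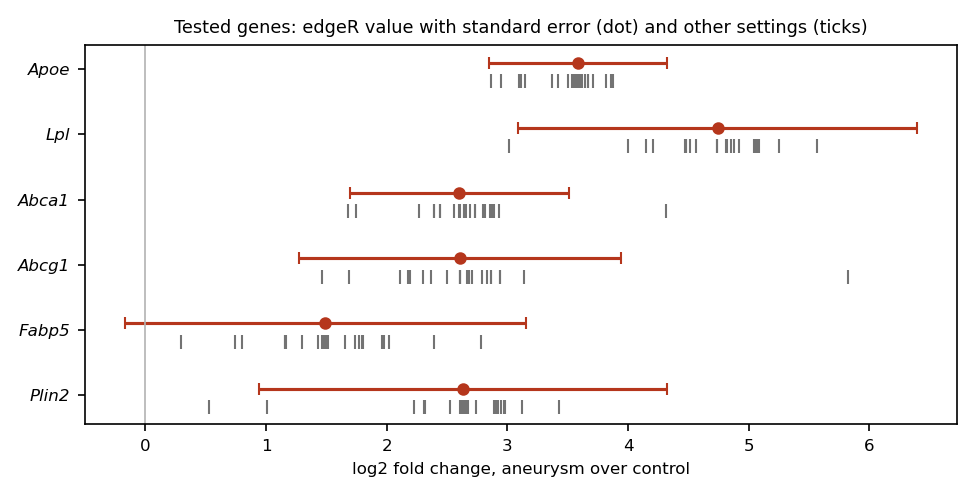
Log2 fold change of aneurysm over control (horizontal axis) of the 6 fitted genes, with the edgeR value and its standard error as a dot and bar and the values of the other processing settings as ticks. Apoe has the narrowest range, 2.86 to 3.88, and every tick of the 6 genes lies above 0.

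The genes outside the 9 whose pattern over the 10 samples was nearest to that of Apoe, by the root mean square difference of log2 CPM after centring each gene on its own mean, were Ccdc80 (0.71), fibronectin (Fn1, 0.73), Fstl1 (0.80), the basement membrane collagen Col4a1 (0.83) and the ribosomal protein gene Rplp0 (0.92). By rank agreement, the nearest 5 were Sdc2, Cstb, Fstl1, Wisp2 and LOC685933, of which 1, Fstl1, was shared. Of the genes outside the 9, Mid1 (1.32) and Sparc (1.34) were nearest to Lpl, LOC108351137 (0.70) and Tpt1 (0.94) to Abca1, and Parp1 (0.80) and Rpl34-ps1 (0.85) to Abcg1. Uqcrfs1 (0.98) and Bid (1.08) were nearest to Fabp5, and Ppp1r10 (1.14) and Nckap1l (1.21) to Plin2. By rank agreement, 0 of these 2 genes were again the nearest for Lpl, Abca1, Abcg1 and Plin2, and 1 of the 2, Uqcrfs1, was for Fabp5. Among the 9 genes themselves the closest patterns were those of Lpl and Abcg1 (1.31) and of Apoe and Abca1 (1.39), and the farthest those of Fabp4 and Fabp5 (4.15) and of Apoc1 and Fabp5 (4.14). All of these values share the same 10 libraries and their scaling, and they describe likeness of pattern only.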

How the data were processed

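The authors extracted RNA with a fibrous tissue kit, made poly(A)-selected libraries with a stranded kit, sequenced them in pairs and aligned them to Rnor6 in the CLC genomics workbench. No source used here gives the strand setting, the treatment of duplicates or the annotation release. The deposited values are raw counts of 22081 genes, each as reads over the whole gene, its exons, its introns and its exon junctions, and separately for uniquely placed reads. All rows are named and all sample columns were matched by name to the labels. Exon length and exon number come from the same table, and its columns of the authors' own comparison (fold change, p-value, FDR) were not used.

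Groups were taken from the sample titles. Gene reads were fitted in R (4.3.3) with edgeR (4.0.16): filterByExpr (count minimum 10), TMM, the quasi-likelihood test and Benjamini-Hochberg adjustment over all 7615 genes at 0.05, with no block. The common biological coefficient of variation was 1.38. DESeq2 (1.42.0) and limma (3.58.1) were alternatives. Log2 CPM used a prior count of 2. Ratios of reads carry exact binomial 95% counting intervals, and a group at 0 is set at 3 reads. The fit was also run on simulated counts, but with a spread between replicates set far below that of these libraries. That run checked the code and measures neither power nor false calls here. No pair of replicates agreed within sampling noise.

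The 9 genes, the lists and the tests were chosen with earlier results of these data known. Named besides the 9 were, in each lipid list, the genes that passed or the 2 with the lowest p, the genes of nearest pattern, the chromosomal neighbours and marker genes. The 23 alternative settings covered other tests, scalings, filters, kinds of read, the sample number as a block and leaving out samples, and 1, without controls 6 and 7, was added after the data were seen, as were the lists of intestinal and pancreatic genes. No protein sequences were used. Promoters are those of RefSeq GRCr8, in which all 9 genes are annotated; windows of Lpl, Abcg1, Fabp4 and Fabp5 were not used here.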

Additional observations from a re-analysis of the deposited data

Results flagged for a closer look

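Over 18 groups of 5 values (9 genes in the aneurysms and in the controls), 2 had a sample whose gap to its nearest neighbour was more than 0.71 of the group's range in log2 CPM, and chance flags about 1 group in 20. Apoc1 stood out in control 8, at a log2 CPM of -0.28, where 1 read was counted and the other 4 controls had 0. Abcg1 stood out in control 6, at a log2 CPM of -0.59 (0.289 CPM, 1 read), below the other controls, and this is 1 of the 2 libraries with intestinal transcripts.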

How the results depend on the processing

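All 6 fitted genes kept a positive log2 fold change under all 24 alternatives that fitted them. Apoe ranged from 2.86 to 3.88, Lpl from 3.01 to 5.56, Abca1 from 1.68 to 4.31, Abcg1 from 1.47 to 5.82, Fabp5 from 0.30 to 2.78 and Plin2 from 0.53 to 3.43. Apoe passed the threshold in 11 of the 24 alternatives and lost it in 13: the scalings by upper quartile and by library size, exon reads (filtered or not), the fit without controls 6 and 7, and the fits without aneurysm 5, 6 or 7 or any 1 control. The number of the 9 genes called was 1 in the reported fit, 2 with DESeq2 (Apoe and Lpl), 2 with no filter (Apoe and Apoc1), 2 with at least 10 reads in 3 samples, 0 with either other scaling, 0 with filtered exon reads, 1 with unfiltered exon reads (Apoc1), 0 without controls 6 and 7, and 0 to 1 when 1 sample was left out. Over all genes, 12 of the 7615 fitted were called in the reported fit. On the same 7615 genes, 130 were called with DESeq2 and 34 with the edgeR exact test. Upper-quartile scaling and library size only called 2 of them each. No filter gave 130 of 16700, and at least 10 reads in 3 samples gave 28 of 10481. Exon reads gave 16 of 2969 filtered and 30 of 12722 unfiltered. Without both samples numbered 8, 24 of 8377 were called, and without controls 6 and 7, 4 of 9399. When 1 sample was left out, it was 1 of 8531 (without control 8) to 33 of 8818 (without aneurysm 8). Of the other lipid genes, 0 were called in the reported fit, 1 with DESeq2, 1 with at least 10 reads in 3 samples, 1 with unfiltered exon reads and 4 with no filter, of which Apoa1 and Fabp1, lower in the aneurysms, had nearly all their reads in controls 6 and 7. The cause of these changes was not tested, apart from fewer genes or samples where the setting itself gives them. DESeq2 put the median log2 fold change of all genes at 0.40, against 0.13 in the reported fit.

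The deviations of same-numbered samples from their group means correlated at 0.024, -0.0236, 0.05, 7.89e-05 and 0.136 for numbers 4 to 8. The highest was that of number 8, whose libraries had the lowest scaling factors of their groups (0.282 and 0.759), and 2 of 5 samples correlated best with their own number. Such correlations cannot tell whether a shared number marks 1 animal. The reported fit did not use the number as a pairing, a choice made beforehand. With the number as a replicate block, 17 genes were called, 0 other lipid genes and 1 of the 9, Apoe at 3.14, and Abca1 was 1.68, Abcg1 1.68, Lpl 4.15, Fabp5 2.02 and Plin2 0.53. The nearest genes to Apoe changed with the measure, with 1 of 5 shared.

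Depth limits the low genes: Apoc1 and Fabp4 had 1 and 3 control reads in all, so their folds rest on those, 143 and 28 of the 176 Cd36 control reads came from controls 4 and 7, and aneurysm 8 had at most 34 reads of any of the 9 genes but Apoe.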
